A study of Arabidopsis thaliana with 115 samples.

Results

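HB6 was compared with the empty vector (EV) in batch 3 of a screen in Arabidopsis thaliana of 33 transcription factors (TFs) that respond early to nitrogen (N). The comparison rests on 6 RNA-seq libraries of the series, the 3 labelled HB6 of batch 3 and the 3 EV libraries of that batch, and covers all genes, with the HB6 gene itself left out of the description of its targets. In the assay (TARGET), root protoplasts are transfected with a plasmid that carries a TF fused to the hormone-binding part of the glucocorticoid receptor (GR), dexamethasone (DEX) lets the fusion enter the nucleus, and cycloheximide (CHX), a blocker of translation, is present so that genes further downstream should not respond. The EV plasmid expresses GR without a TF. HB6 and EV cells were both wild-type Col-0 cells from roots of 10-day-old seedlings, and both had received the same treatments: 20 mM KNO3 with 20 mM NH4NO3 (60 mM total N), 35 µM CHX and 10 µM DEX. Each well held cells of 2 separate transfections, with a red and a green fluorescent protein on their plasmids, which were incubated together and parted by cell sorting at the end. The colour of HB6 and EV, and the TF that shared the wells of HB6, are not given in the sources used here. The HB6 libraries were deposited apart from the EV libraries and the other TFs of batch 3, together with libraries of other batches. Whether they were also prepared or sequenced apart is not given in these sources. The part of such a difference in the results below was not tested. The replicates of HB6, and those of EV, were wells filled from a single transfection, so the p-values below measure the spread between wells, which may be technical, and not the spread between independent transfections. HB6 was strongly overexpressed from the plasmid, and the values describe root cells without cell walls rather than intact roots.

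HB6 is a homeodomain-leucine zipper (HD-Zip) factor of class I. These plant-specific TFs bind as dimers to the near-palindrome CAATNATTG, where N is any base, through a homeodomain joined to a leucine zipper. The HB6 gene is induced by abscisic acid (ABA), and its protein binds to ABI1, a clade A PP2C phosphatase that represses ABA signalling. In plants HB6 is known as a negative regulator of ABA responses.

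The HB6 libraries held 16150355, 22866928 and 17874608 counts, against 13700546, 13897768 and 12557194 in the EV libraries, so each HB6 library was deeper than each EV library. The 21 libraries of the other 7 TFs of batch 3 held 6807205 to 20524940 counts. The HB6 gene (AT2G22430, chr2:9525988-9527845 in the TAIR10.1 assembly) had 6255, 6191 and 5820.2 CPM in the HB6 libraries, where CPM is the count of a gene relative to the TMM-scaled size of its library, against 161, 139 and 145 CPM in the EV libraries. Its log2 fold change was 5.36 (SE 0.13, adjusted p = 1.9e-64), and its counts come from the plasmid and the chromosome together. In the libraries of the other 7 TFs the HB6 gene stood at 106 to 164 CPM, all far below the HB6 libraries. The HB6 libraries stood apart in BEE2, the gene of another TF of the batch. BEE2 had 44.2, 59.6 and 50.6 CPM in the HB6 libraries, 12388 to 14096 CPM in the BEE2 libraries and at most 3.49 CPM in those of the other 6 TFs, against 0.506, 2.42 and 1.21 CPM in the EV libraries (log2 fold change of HB6 over EV 5.21). BEE2 is CHX-responsive and was left out of the targets, its level in HB6 libraries was 0.393% of that in BEE2 libraries, and the part of shared wells in these counts was not tested. The HB6 gene was not raised in the BEE2 libraries.

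HB6 changed 1158 genes relative to EV, 506 of them induced and 652 repressed (edgeR quasi-likelihood test over all libraries of the series, Benjamini-Hochberg adjusted p under 0.05). Of the 21484 genes tested, after the CHX-responsive genes and HB6 were left out, 2.36% were induced and 3.03% were repressed. The induced targets changed more: 182 of the 506 (36.0%) were at least 2-fold higher in HB6 cells, while 37 of the 652 repressed targets (5.67%) were at least 2-fold lower. The median log2 fold change was 0.80 among induced targets, -0.51 among repressed targets and 0.03 over all genes tested. Repressed targets were also the more abundant genes, with a median of 101.4 CPM in the EV libraries against 13.8 CPM for induced targets and 6.73 CPM for all genes tested. Targets were selected by the test, in which a gene with fewer counts needs a larger change to pass. The part of level in the sizes of change was not tested. Single wells mattered for the counts of targets. Induced targets numbered 303 without HB6 replicate 2 and 336, 327 and 312 without EV replicates 1, 2 and 3, and repressed targets numbered 424 without HB6 replicate 3 and 374 without EV replicate 1.

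**Figure D1:**
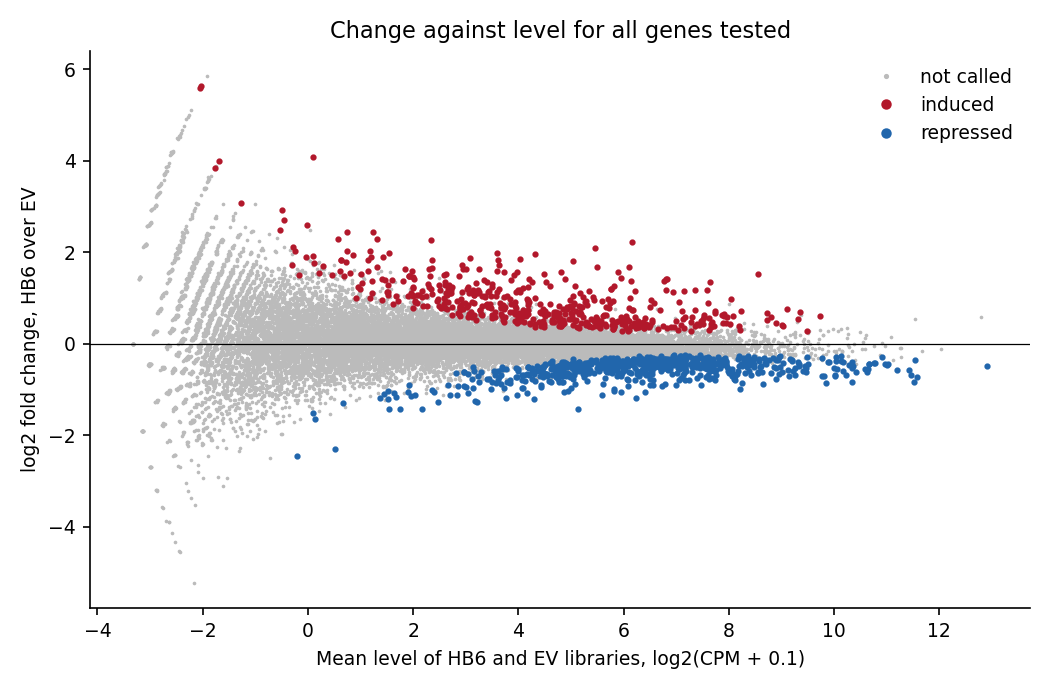
Log2 fold change of HB6 over EV (vertical axis) against the mean level of the HB6 and EV libraries as log2(CPM + 0.1) (horizontal axis), with 1 point for each of the 21484 genes tested. The 506 induced targets (red) spread further from 0 than the 652 repressed targets (blue), which lie mainly at high levels.

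The promoters of induced targets held the palindrome CAATNATTG, with any central base, more often than other promoters. A promoter was taken as the 300 bases from 250 before to 50 after the gene's start in RefSeq (TAIR10.1), and CAATNATTG was searched in it on both strands. It was present in 24 of 506 induced targets (4.74%, 95% Wilson interval 3.21 to 6.96%), in 6 of 643 repressed targets with a promoter (0.933%, 0.428 to 2.02%), in 216 of 20210 tested genes that were no targets (1.07%, 0.936 to 1.22%) and in 342 of all 32794 promoters (1.04%). Among targets changed at least 2-fold, 14 of 182 induced promoters held it (7.69%, 4.64 to 12.5%), and 0 of 35 repressed promoters did, which allows a share of up to 8.57% when a count of 0 is taken to allow 3 (upper Wilson limit 9.89%). The intervals cover counting error over promoters only. The following sites are shown because they lie in front of induced targets described below, the last being in front of a repressed target for comparison. Each is read 5′ to 3′ on the strand of its gene, with the palindrome in capitals.

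EXPA17: gcacttcttaCAATCATTGaatcaatcat

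AT2G20080: tcttattgcaCAATGATTGtaattaataa

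BGLU34: gagaataattCAATTATTGttttcttaat

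AT1G74940: ctgctcatatCAATAATTGtgtatatata

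SCPL11: cagcaagcctCAATTATTGgtaattaatt

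ASN1: gcaatcagaaCAATCATTGgacagttttt

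GLU2: agattcCAATAATTGttctaaggttaaca

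CAT3: gttatcagcaCAATAATTGattttcaaaa

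The coordinates are those of the printed stretch, and distances are from the first base of the palindrome to the start of the gene. The EXPA17 stretch (chr4:700423-700451, plus strand) holds a palindrome that begins 133 bases before the start, and that of AT2G20080 (chr2:8665124-8665152, minus strand) begins 116 bases before it. BGLU34 has its stretch at chr1:17491561-17491589 (plus strand), AT1G74940 at chr1:28145898-28145926 (plus strand) and SCPL11 at chr2:9774737-9774765 (plus strand), with palindromes 160, 70 and 2 bases before the start. The stretches of both N assimilation genes lie at chr3:17441552-17441580 (minus strand) for ASN1 and at chr2:17177289-17177317 (plus strand) for GLU2, 139 and 244 bases before the start. That of CAT3 is at chr1:7142735-7142763 (plus strand), 227 bases before the start. All lie upstream of the annotated gene, apart from the SCPL11 stretch, which runs across the start. On the strand of the gene the palindrome has the same letters in front of AT1G74940, GLU2 and CAT3. On the other strand these letters read as those of BGLU34 and SCPL11. In the same way the letters of AT2G20080 read as those of EXPA17 and ASN1. SCPL11, a serine carboxypeptidase-like gene chosen after its values were seen, had 24.3, 27.8 and 28.8 CPM with HB6, against 9.86, 9.52 and 7.8 CPM with EV, and CAT3, a catalase gene chosen in the same way, averaged 62.1 CPM in HB6 and 93.5 CPM in EV libraries (log2 fold change -0.59). A match is a description of the sequence and not a bound site.

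The shorter core AATNATT, which is contained in the palindrome, was found on either strand in 48.8% of induced promoters (95% interval 44.5 to 53.2%), 34.4% of repressed promoters (30.8 to 38.1%) and 34.0% of those of tested genes that were no targets. ACGTG, the core of the ABA-responsive element (ABRE) that bZIP factors bind and no part of the palindrome, was in 35.6% of induced promoters (31.5 to 39.8%), against 26.4% of repressed promoters (23.2 to 30.0%) and 27.1% of tested genes that were no targets. Over all promoters the shares were 31.9% for AATNATT and 25.2% for ACGTG. Seen from the sequence, 12.2% of the 246 tested genes with CAATNATTG were HB6 targets, against 5.30% of the 21113 without it. The median log2 fold change was 0.12 in the genes with the palindrome and 0.03 in those without.

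**Figure D2:**
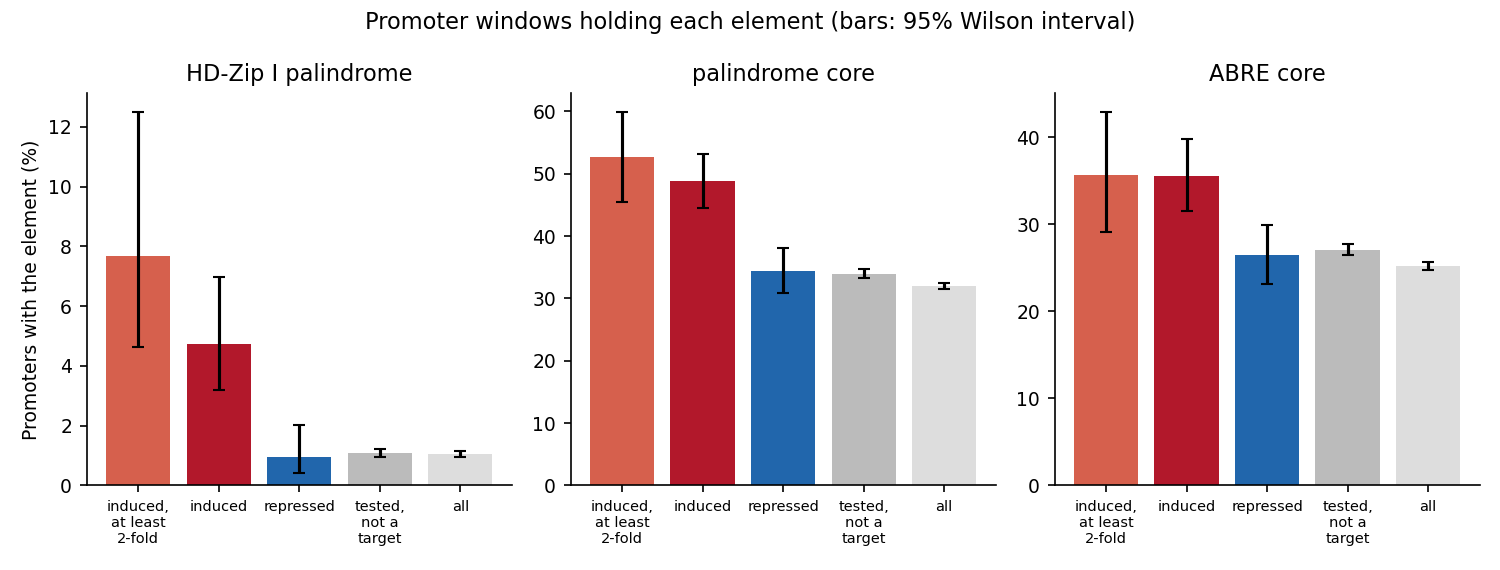
Percentage of promoters that hold CAATNATTG with any central base (titled HD-Zip I palindrome), its shorter core or the ABRE core (3 panels). The groups are targets induced at least 2-fold, all induced targets, repressed targets, tested genes that were no targets and all promoters. Bars are shares and lines are 95% Wilson intervals, with the palindrome in 7.69%, 4.74%, 0.933%, 1.07% and 1.04% of these promoters in that order.

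The induced targets with the largest changes included regulators of root development and enzymes of specialised metabolism. CYP705A5 (AT5G47990), a cytochrome P450 of thalianol metabolism, had 152, 157 and 156 CPM in the HB6 libraries, against 40.8, 30.8 and 28.0 CPM in the EV libraries (log2 fold change 2.22, SE 0.22, adjusted p = 4.8e-12). RHD6 (AT1G66470), a bHLH factor that starts root hair formation, had 72.9, 109 and 89.3 CPM with HB6, against 18.5, 25.5 and 19.6 CPM with EV (log2 fold change 2.096, SE 0.30, adjusted p = 2.9e-07). HAT2 (AT5G47370), an auxin-induced HD-Zip factor of class II, had 22.8, 24.6 and 23.7 CPM with HB6, against 7.84, 5.84 and 4.27 CPM with EV (log2 fold change 1.98, SE 0.28, adjusted p = 2.4e-07). In all of these genes every HB6 well lay above every EV well, as the selection required, and the margin was wide. The sorted cells are a mixture of root cell types, in which more (or fewer) cells of a type and more (or less) RNA per cell cannot be told apart. AT1G74940, annotated as a DUF581 protein, had 9.26, 11.0 and 8.31 CPM in HB6 cells, against 2.28, 2.75 and 2.97 CPM in EV cells (log2 fold change 1.84, SE 0.32, adjusted p = 1.5e-05). AT2G20080, a gene without a symbol in the reference table, had 9.13, 11.95 and 11.4 CPM in HB6 cells, against 1.6, 2.75 and 2.32 CPM in EV cells (log2 fold change 2.28, SE 0.37, adjusted p = 2.3e-06). AT1G74940 and AT2G20080 carry the palindrome shown above, as does BGLU34 (AT1G47600), a beta-glucosidase gene. BGLU34 had 36.7, 25.9 and 30.1 CPM in HB6 cells, against 10.5, 8.43 and 6.41 CPM in EV cells (log2 fold change 1.87, SE 0.33, adjusted p = 3.1e-05).

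The other 6 of the 12 were expressed at lower levels or encode proteins with less defined roles. LBD13 (AT2G30340), a LOB-domain factor, averaged 5.27 ± 0.212 CPM in HB6 and 0.947 ± 0.18 CPM in EV libraries (SD, n = 3 each; log2 fold change 2.46, SE 0.51, adjusted p = 4.8e-04), and AGP31 (AT1G28290), an arabinogalactan protein, averaged 5.28 ± 1.82 CPM and 1.05 ± 0.566 CPM in the same order (log2 fold change 2.298, SE 0.58, adjusted p = 0.005). The call of AGP31 was lost without EV replicate 3 (adjusted p = 0.055). WRKY35, SDR4, AT5G60530 and AT2G30230 had log2 fold changes of 1.98, 1.96, 1.88 and 1.83, and in each the HB6 wells were all above the EV wells, as the selection required. EXPA17 (AT4G01630), an alpha-expansin, changed more than any of these but is too weakly expressed for that selection. It had 4.16, 2.15 and 4.56 CPM with HB6, against 0.0843, 0.167 and 0.371 CPM with EV, or 191 counts against 7 over the 3 libraries (log2 fold change 4.08, SE 0.69, adjusted p = 1.0e-05).

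The repressed targets changed less. GSTU12 (AT1G69920), a tau-class glutathione S-transferase, had 50.2, 48.2 and 52.2 CPM in the HB6 libraries, against 122, 107 and 112 CPM in the EV libraries (log2 fold change -1.18, SE 0.15, adjusted p = 8.3e-09). MAKR5 (AT5G52870), a membrane-associated regulator of receptor kinase signalling in the root phloem, had 11.8, 13.3 and 13.6 CPM with HB6, against 36.8, 30.0 and 23.0 CPM with EV (log2 fold change -1.21, SE 0.18, adjusted p = 1.9e-07). The peroxidase gene AT5G66390 had 32.8, 32.8 and 31.5 CPM with HB6, against 88.4, 63.5 and 59.6 CPM with EV (log2 fold change -1.12, SE 0.17, adjusted p = 1.5e-06). The EV wells of MAKR5 and AT5G66390 scattered more widely than the HB6 wells, and the groups did not overlap, as the selection required. GolS2, a galactinol synthase gene (AT1G56600) known from drought responses, averaged 8.96 ± 1.82 CPM in HB6 and 20.3 ± 1.46 CPM in EV libraries (SD, n = 3 each; log2 fold change -1.19, SE 0.22, adjusted p = 5.3e-05). AT4G33610, a glycine-rich protein gene, averaged 21.5 ± 1.18 CPM in HB6 and 57.4 ± 9.08 CPM in EV libraries (log2 fold change -1.42, SE 0.30, adjusted p = 5.9e-04), and EXLB1, an expansin-like gene (AT4G17030), averaged 5.87 ± 0.621 CPM and 14.1 ± 0.335 CPM (log2 fold change -1.27, SE 0.27, adjusted p = 6.9e-04). GRP9, RLP38 and AT1G66465 had log2 fold changes of -1.26, -1.26 and -1.12. For 3 genes at the low end of expression, single wells decided the call: CYP79B3, the enzyme that turns tryptophan into indole-3-acetaldoxime (log2 fold change -1.43), was lost without HB6 replicate 1, HB6 replicate 3 or EV replicate 1 (adjusted p up to 0.18), AT4G03540 (-1.41) without HB6 replicate 2, HB6 replicate 3 or EV replicate 3 (up to 0.15), and AT1G77530 (-1.14) when any library except EV replicate 2 was left out (up to 0.24).

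**Figure D3:**
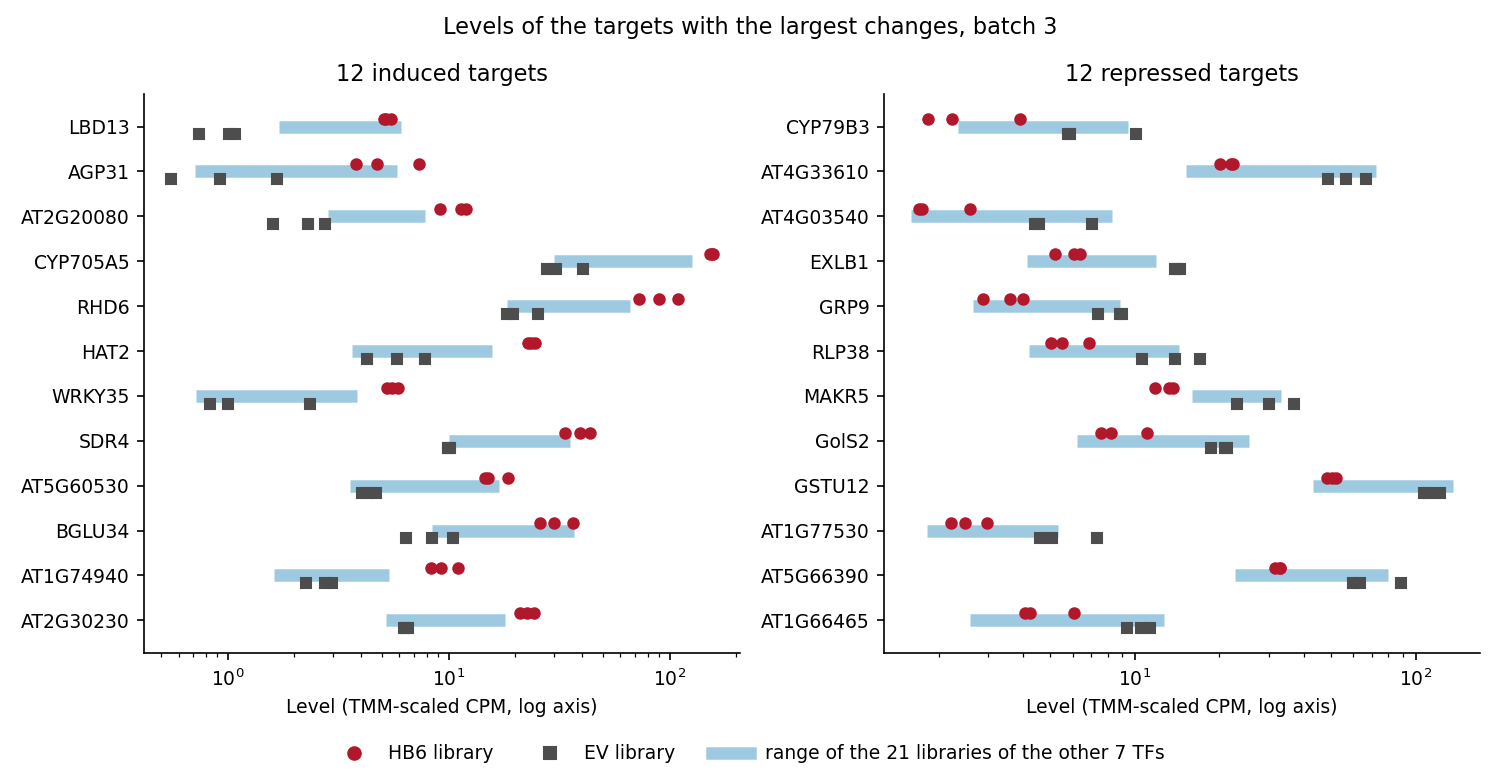
Levels in CPM (horizontal axis, log scale) of the 12 induced and 12 repressed targets with the largest log2 fold changes, for each HB6 library (red circles), each EV library (dark squares) and the range of the 21 libraries of the other 7 TFs of batch 3 (blue bars). In all 24 genes the HB6 and EV libraries are separate because the selection required it. For CYP705A5, RHD6 and HAT2 the HB6 libraries also lie above the whole bar.

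Some further targets are described because of their values, and were chosen after these were seen. The smallest adjusted p of any target belonged to MYB78 (AT5G49620), a MYB factor with 207, 222 and 206 CPM in HB6 cells, against 443, 408 and 402 CPM in EV cells (log2 fold change -0.98, SE 0.09, adjusted p = 3.3e-14). All 4 genes looked up in the thalianol cluster on chromosome 5, which makes a root triterpene, were induced. THAS1, the oxidosqualene cyclase at the start of that pathway, had 118, 116 and 132 CPM with HB6, against 40.6, 37.7 and 36.7 CPM with EV (log2 fold change 1.67, SE 0.22, adjusted p = 2.3e-08). CYP708A2, the thalianol hydroxylase, and the acyltransferase gene AT5G47980 had log2 fold changes of 1.303 (SE 0.30, adjusted p = 0.0013) and 1.27 (SE 0.23, adjusted p = 3.8e-05). The marneral cluster on the same chromosome was induced likewise, with 30.1 ± 2.11 CPM in HB6 and 11.2 ± 3.47 CPM in EV libraries for marneral synthase MRN1 (SD, n = 3 each; log2 fold change 1.42, SE 0.26, adjusted p = 3.7e-05) and log2 fold changes of 1.25 for CYP71A16 and 1.34 for CYP705A12. The arabidiol pair on chromosome 4 was not called: PEN1 had 46.9, 41.3 and 42.1 CPM with HB6, against 40.0, 40.7 and 42.5 CPM with EV (adjusted p = 0.91), and CYP705A1 had a log2 fold change of -0.18 (adjusted p = 0.69). Further sterol and triterpene genes among the induced targets were SQP2, a squalene epoxidase (1.72), CYP705A9 (1.60), SMT3, a sterol methyltransferase (1.32), and CYP710A1, a sterol desaturase (0.97).

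CCD8 (AT4G32810), a carotenoid cleavage dioxygenase of strigolactone synthesis, had 178, 198 and 184 CPM in HB6 cells, against 66.6, 72.3 and 70.1 CPM in EV cells (log2 fold change 1.42, SE 0.15, adjusted p = 2.0e-11). Among transporter genes, ABCG37, which exports phenolic compounds from roots, had 267, 329 and 359 CPM in HB6 cells, against 126, 135 and 112 CPM in EV cells (log2 fold change 1.36, SE 0.19, adjusted p = 1.6e-07), and ABCG30 and the vacuolar transporter ABCC1 had log2 fold changes of 1.18 and 1.18. The HB6 wells lay well clear of the EV wells in all of them. Repressed targets chosen in the same way included GSTF6. GSTF6, a glutathione S-transferase, averaged 679.8 ± 24.8 CPM in HB6 and 1232 ± 86.2 CPM in EV libraries (SD, n = 3 each; log2 fold change -0.86, SE 0.12, adjusted p = 3.6e-08), and the chitinase genes AT1G02360 and AT4G01700 had log2 fold changes of -0.88 and -0.78. WRKY15 averaged 445 ± 15.6 CPM in HB6 and 722 ± 30.6 CPM in EV libraries (log2 fold change -0.70, SE 0.09, adjusted p = 6.1e-09). The amino acid permeases AAP2 and AAP5 (-1.02 and -0.79) and LOG4, a cytokinin-activating enzyme (-0.96), were repressed as well.

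ABA signalling runs from the PYR/PYL receptors, which inhibit clade A PP2C phosphatases, to SnRK2 kinases and the ABF and ABI factors that they activate. List counts here and below stand beside shares of 2.36% induced and 3.03% repressed over all genes tested. A single call in a short list describes that gene and not the list. Of 10 receptor genes tested 0 were called, with log2 fold changes of -0.46 to 1.14, and of 5 ABF and ABI genes 0 were called (-0.18 to 0.31). Of 9 clade A PP2C genes 1 was repressed, HAI2, with 141, 108 and 112 CPM with HB6, against 182, 164 and 171 CPM with EV (log2 fold change -0.52, SE 0.16, adjusted p = 0.029). HAI2 was lost without HB6 replicates 2 or 3 or EV replicates 1 or 3 (adjusted p up to 0.15) and when batch 3 alone was fitted (adjusted p = 0.10). ABI1, whose protein binds HB6, had 157, 133 and 134 CPM with HB6, against 204, 159 and 152 CPM with EV (log2 fold change -0.28, adjusted p = 0.17), and did not pass. Of 10 SnRK2 genes 1 rose, SNRK2.3 (log2 fold change 0.46, SE 0.11, adjusted p = 0.0038). A PP2C gene outside clade A, AT5G27930, chosen after its values were seen, had 49.8, 49.4 and 44.9 CPM with HB6, against 18.5, 17.4 and 17.7 CPM with EV (log2 fold change 1.43, SE 0.16, adjusted p = 9.1e-11).

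Of the 9 tested genes of ABA synthesis and breakdown 1 changed. CYP707A1 (AT4G19230), an ABA hydroxylase that starts the breakdown of ABA, had 178, 187 and 179 CPM in HB6 cells, against 101, 75.1 and 71.5 CPM in EV cells (log2 fold change 1.14, SE 0.20, adjusted p = 2.7e-05). Another 3 listed genes, among them NCED3 and CYP707A3, are CHX-responsive and were left out. Of 14 ABA and dehydration response genes 3 were induced and 1 was repressed, with a median log2 fold change of -0.05 for the list. The shares over all genes tested were 2.36% and 3.03%. RAB18 (AT5G66400), a dehydrin gene and classical ABA marker, had 83.2, 80.7 and 96.0 CPM with HB6, against 35.5, 36.1 and 37.0 CPM with EV (log2 fold change 1.26, SE 0.20, adjusted p = 5.4e-06). P5CS1, an enzyme of proline synthesis, had 43.9, 57.2 and 61.4 CPM with HB6, against 41.7, 35.9 and 31.0 CPM with EV (log2 fold change 0.58, SE 0.13, adjusted p = 0.0014). RD29B (LTI65 in the reference table) averaged 37.0 ± 1.83 CPM in HB6 and 23.4 ± 4.64 CPM in EV libraries (SD, n = 3 each; log2 fold change 0.66, SE 0.20, adjusted p = 0.031), but this call was lost when any library except EV replicate 1 was left out (adjusted p up to 0.17). RD26, a NAC factor, was the repressed member, with 537, 506 and 519 CPM in HB6 cells and 714, 619 and 673 CPM in EV cells (log2 fold change -0.36, SE 0.10, adjusted p = 0.011), and was lost without EV replicate 1 (adjusted p = 0.098). The abundant members RD29A (LTI78), COR47, ERD10 and KIN2 had log2 fold changes of -0.06, -0.04, -0.20 and -0.02 and did not pass. The direction of the calls was therefore mixed within the ABA lists, but they were not equally stable. Both repressed calls, HAI2 and RD26, and the induced call of RD29B were lost in fits without 1 library. The induced calls of RAB18, P5CS1, CYP707A1 and SNRK2.3 were kept in all of those fits.

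Other HD-Zip genes responded in a few cases. Of 12 class I genes tested, HB6 left out, 3 were induced and 0 repressed, beside 2.36% and 3.03% of all genes tested. HB12 averaged 561 ± 11.3 CPM in HB6 and 409 ± 19.8 CPM in EV libraries (SD, n = 3 each; log2 fold change 0.46, SE 0.15, adjusted p = 0.043), HB20 14.0 ± 1.84 CPM and 9.02 ± 0.448 CPM (log2 fold change 0.63, SE 0.20, adjusted p = 0.032), and HB23 2.12 ± 0.522 CPM and 0.341 ± 0.158 CPM (log2 fold change 2.59, SE 0.73, adjusted p = 0.015). These calls were fragile. HB12 was lost when any of the 6 libraries was left out (adjusted p up to 0.16), HB20 when any except HB6 replicate 3 was (up to 0.25), and HB23 without HB6 replicate 2 or EV replicates 1 or 3 (up to 0.1). HAT2, described above, was the 1 member called of 8 class II genes tested, and HAT22 itself had 311, 319 and 299 CPM with HB6, against 327, 278 and 272 CPM with EV (adjusted p = 0.83). Of the class III genes, which were looked up after their values were seen, PHB and ATHB-15 were repressed, with log2 fold changes of -0.92 (SE 0.25, adjusted p = 0.011) and -0.97 (SE 0.20, adjusted p = 3.8e-04), while PHV, REV and HB-8 (-0.20, -0.23 and -0.35) did not pass. PHB was lost without HB6 replicate 3 or EV replicate 3 (adjusted p up to 0.11). None of the 27 other TF genes of the screen that were tested and are not CHX-responsive, 21 with a symbol in the reference table and 6 known by the study's symbols, passed.

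Among 16 genes of N reduction and assimilation 3 rose and 1 fell, beside 2.36% and 3.03% of all genes tested. ASN1 (AT3G47340), an asparagine synthetase and the gene with the palindrome shown above, had 574, 630.1 and 701 CPM in HB6 cells, against 224, 239 and 197 CPM in EV cells, a 2.89-fold difference (log2 fold change 1.53, SE 0.27, adjusted p = 4.1e-05). GLU2, a ferredoxin-dependent glutamate synthase that also carries the palindrome, had 235, 246 and 229 CPM with HB6, against 181, 181 and 162 CPM with EV (log2 fold change 0.44, SE 0.10, adjusted p = 0.0012). NIA2, the main nitrate reductase, had 1719.9, 1797 and 1744 CPM with HB6, against 2466, 2489 and 2273 CPM with EV (log2 fold change -0.46, SE 0.11, adjusted p = 0.0038). HB6 and EV wells did not overlap in any of the 3 genes. GDH1, a glutamate dehydrogenase, averaged 20.7 ± 2.31 CPM in HB6 and 13.6 ± 1.21 CPM in EV libraries (SD, n = 3 each; log2 fold change 0.60, SE 0.20, adjusted p = 0.049), a call that was lost when any of the 6 libraries was left out (adjusted p up to 0.28), without the filter on low counts (0.07) and with the size factors of DESeq2 (0.052). GLT1, GDH2, NIR1 and GLN1.3 had log2 fold changes of 0.13, -0.04, 0.11 and -0.34 and did not pass.

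Of 11 nitrate and ammonium transporter genes 1 was called. AMT1;3 had 3.84, 4.26 and 4.62 CPM with HB6, against 1.52, 0.835 and 1.02 CPM with EV (log2 fold change 1.90, SE 0.49, adjusted p = 0.0059), and was lost without EV replicate 2 (adjusted p = 0.057). The nitrate transporters NRT1.1 and NRT2.1 had log2 fold changes of 0.45 and 0.21 and did not pass. Of 8 N signalling regulators 2 were repressed. BT2, a BTB and TAZ domain protein that represses nitrate uptake genes, had 84.8, 83.2 and 93.5 CPM with HB6, against 133, 118 and 131 CPM with EV (log2 fold change -0.55, SE 0.14, adjusted p = 0.0079). CIPK8, a kinase of the nitrate response, averaged 91.1 ± 3.87 CPM in HB6 and 114.6 ± 5.62 CPM in EV libraries (SD, n = 3 each; log2 fold change -0.33, SE 0.09, adjusted p = 0.006) and was lost without HB6 replicate 3 or EV replicate 3 (adjusted p up to 0.057). The HB6 and EV groups were separate in all 3 of these genes, but AMT1;3 was weakly expressed.

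In the hormone lists, 4 of 8 tested genes of ethylene synthesis were repressed and 0 induced, with a median log2 fold change of -0.64, beside 0.03 over all genes. The share repressed over all genes tested was 3.03%. ACS2, an ACC synthase, had 398, 403 and 459.6 CPM in HB6 cells, against 631, 667 and 628 CPM in EV cells (log2 fold change -0.61, SE 0.16, adjusted p = 0.0059). ACO4, an ACC oxidase listed as EFE in the reference table, had 151, 165 and 160.3 CPM with HB6, against 242, 230.5 and 227 CPM with EV (log2 fold change -0.55, SE 0.10, adjusted p = 3.7e-05). ACO5 (AT1G77330) and ACO1 had log2 fold changes of -0.67 (SE 0.19, adjusted p = 0.018) and -1.06 (SE 0.34, adjusted p = 0.043). The calls of both were lost in most fits without 1 library: ACO5 in those without HB6 replicates 1 or 3 or EV replicates 1 or 3 (adjusted p up to 0.086), and ACO1 in all except that without HB6 replicate 2 (up to 0.24). A further 4 members of this list are CHX-responsive and were left out. The lowest log2 fold change among the 8 tested was -2.69, in a gene that was not called. Of the 12 members matched to the reference, 2 had 0 counts in the HB6 libraries.

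Of 23 Aux/IAA and GH3 genes, which encode repressors of auxin response and enzymes that conjugate auxin, 4 were induced and 2 repressed. The shares over all genes tested were 2.36% and 3.03%. IAA7 had 24.1, 23.3 and 25.8 CPM with HB6, against 10.3, 11.9 and 9.94 CPM with EV (log2 fold change 1.18, SE 0.27, adjusted p = 0.0018), and IAA16 had 269, 293 and 307 CPM with HB6, against 202, 198 and 235 CPM with EV (log2 fold change 0.45, SE 0.09, adjusted p = 1.7e-04). GH3.5 (WES1) and GH3.4 had log2 fold changes of 1.02 (SE 0.25, adjusted p = 0.0036) and 1.04 (SE 0.31, adjusted p = 0.026), and IAA8 and IAA9 of -0.42 (SE 0.14, adjusted p = 0.045) and -0.25 (SE 0.08, adjusted p = 0.025). IAA8 had 20.9, 23.0 and 18.4 CPM with HB6, against 29.5, 23.0 and 31.4 CPM with EV, so its wells overlapped, whereas those of IAA7 and IAA16 did not. GH3.5 was lost without EV replicate 3 (adjusted p = 0.052), and GH3.4, IAA8 and IAA9 were each lost in 4 of the 6 fits without 1 library, among them those without HB6 replicates 1 and 3 and EV replicate 1 (up to 0.14, 0.28 and 0.13). Of 6 jasmonate repressor (JAZ) genes 1 fell, JAZ1, with 2700.3, 2619.5 and 2572 CPM in HB6 cells and 3436, 3254 and 3344 CPM in EV cells (log2 fold change -0.35, SE 0.08, adjusted p = 0.0011). None of 8 type-A response regulator genes and none of 4 gibberellin oxidase genes was called.

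Of 15 phenylpropanoid and flavonoid genes 4 fell and 0 rose, beside 3.03% and 2.36% of all genes tested. The 4 were PAL1, PAL2, C4H and 4CL1, which act between phenylalanine and coumaroyl-CoA, while PAL3, PAL4, 4CL2 and 4CL3, which encode the same kinds of enzyme, did not pass. C4H, the cinnamate hydroxylase, had 1405, 1259 and 1144 CPM in HB6 cells, against 1913, 1751 and 1889 CPM in EV cells (log2 fold change -0.54, SE 0.14, adjusted p = 0.0043). 4CL1, the coumarate-CoA ligase, had 815, 684 and 625 CPM in HB6 cells, against 1252, 1137 and 1051 CPM in EV cells (log2 fold change -0.70, SE 0.17, adjusted p = 0.0049). PAL1 and PAL2, phenylalanine ammonia-lyases, had log2 fold changes of -0.59 (SE 0.17, adjusted p = 0.023) and -0.58 (SE 0.18, adjusted p = 0.031). In all 4 genes HB6 replicate 1 was the highest of the HB6 wells and still lay below the lowest EV well. Without HB6 replicate 3 none of the 4 was called (adjusted p = 0.055 for C4H and 0.056 for 4CL1). PAL1 was also lost without HB6 replicate 2 or EV replicate 1 (up to 0.14), and PAL2 without HB6 replicate 2 or EV replicates 1 or 2 (up to 0.25). Among genes chosen after their values were seen, ADT4, an arogenate dehydratase that makes phenylalanine, had 475, 479.6 and 511 CPM with HB6, against 747, 759 and 703 CPM with EV (log2 fold change -0.59, SE 0.09, adjusted p = 1.9e-07), and CCR2, a cinnamoyl-CoA reductase, had a log2 fold change of -0.68 (SE 0.09, adjusted p = 1.1e-08). The flavonoid genes proper, from TT4 to LDOX, had 0 calls and low levels.

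Of 17 alpha-expansin genes, whose proteins loosen cell walls, 2 rose and 1 fell, with a median log2 fold change of 0.65. The shares over all genes tested were 2.36% and 3.03%. EXPA9 averaged 9.29 ± 0.988 CPM in HB6 and 4.23 ± 0.338 CPM in EV libraries (SD, n = 3 each; log2 fold change 1.13, SE 0.33, adjusted p = 0.019), and EXPA17 is given above. EXPA4, the most abundant of the family here, had 119, 98.2 and 94.7 CPM with HB6, against 179.8, 147 and 159 CPM with EV (log2 fold change -0.64, SE 0.17, adjusted p = 0.0072). EXPA9 was lost when any library except HB6 replicate 3 was left out (adjusted p up to 0.092), and EXPA4 without HB6 replicate 3 or EV replicate 1 (up to 0.071).

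Of 77 plastid genes tested, which were looked at after their values were seen, 9 fell and 0 rose, with log2 fold changes of -1.05 to -0.65 among the 9 and a median of -0.46 over the 77. Of these, 8 lie in the run of identifiers from ATCG00740 to ATCG00820. ATCG00800 had 11.4, 10.0 and 10.1 CPM in HB6 libraries, against 18.3, 16.6 and 22.2 CPM in EV libraries (log2 fold change -0.86, SE 0.22, adjusted p = 0.0068). All 9 calls were lost without EV replicate 3 (adjusted p of 0.067 or more), so they rest on that well. None of 47 mitochondrial genes was called. The shares over all genes tested were 3.03% repressed and 2.36% induced.

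**Figure D4:**
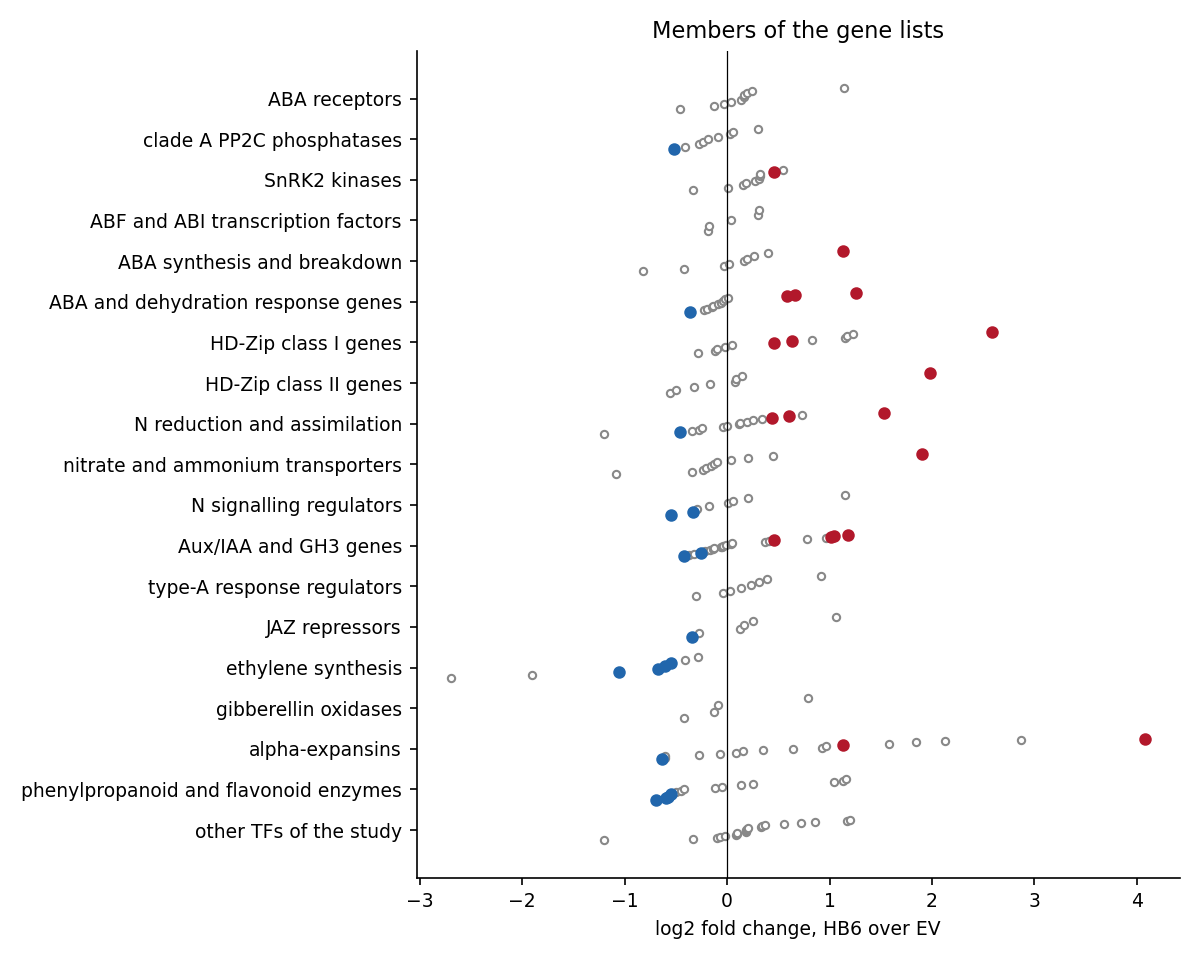
Log2 fold change of HB6 over EV (horizontal axis) for each tested member of the gene lists (1 line for each list), with induced targets in red, repressed targets in blue and members that did not pass as open circles. The 4 called ethylene synthesis genes and the 4 called phenylpropanoid genes all lie below 0, whereas ABA response, N assimilation, Aux/IAA and GH3 and expansin genes have calls on both sides.

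Some markers of root cell types moved with the comparison. The summed level of the 6 root hair and epidermis markers was 26.1 to 36.1 CPM in HB6 libraries and 14.2 to 18.8 CPM in EV libraries, with 1 of 5 tested members induced (RHD2, log2 fold change 0.76, SE 0.23, adjusted p = 0.028, lost without HB6 replicate 2 or any EV library, adjusted p up to 0.37). The sum of the 3 root cap markers was 3.39 to 4.98 CPM in HB6 and 0.836 to 1.59 CPM in EV libraries. SMB and BRN1, both root cap factors, were called at these low levels (log2 fold change 1.59 for SMB, and 30 counts in HB6 libraries and 1 in EV libraries for BRN1). Both were lost without HB6 replicate 1 or EV replicates 1 or 3 (adjusted p up to 0.14 and 0.16). Endodermis markers summed to 68.0 to 76.8 CPM in HB6 and 88.9 to 112.2 CPM in EV libraries, with 0 of 5 called. Stele markers summed to 81.0 to 89.4 CPM in HB6 and 82.4 to 87.2 CPM in EV libraries. Of these 5, AHK4 (WOL), a cytokinin receptor, rose (log2 fold change 1.15, SE 0.19, adjusted p = 2.3e-06) and PHO1, a phosphate exporter, fell (log2 fold change -0.78, SE 0.20, adjusted p = 0.0054). The 6 leaf mesophyll markers summed to 0.630 to 1.42 CPM in HB6 and 0.169 to 0.835 CPM in EV libraries, close to 0. The other 7 TFs spanned 13.6 to 43.1 CPM for root hair and 0.600 to 5.32 CPM for root cap markers. They spanned 53.8 to 99.8 CPM for endodermis and 58.4 to 110 CPM for stele markers. All of these ranges include the HB6 libraries. The part of cell composition in the changes of RHD6, EXPA17 and other genes was not tested.

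HB6 was also set against the mean of the other 7 TFs labelled with the same batch and treatments (BEE2, COL5, CRF4, GATA17L, HHO3, HYH and TGA4). Their libraries, like those of EV, were deposited apart from the HB6 libraries. EV plays no part in this contrast, but it uses the same 3 HB6 libraries as the contrast with EV. Of all genes tested 2.52% (541) differed in it. Of the 1158 HB6 targets 391 (33.8%) passed with the same sign as against EV, 253 of the 506 induced and 138 of the 652 repressed (21.2%). The shared HB6 libraries favour the same sign in both contrasts, so these counts are a description of the targets and no independent check of them. The differences were smaller than against EV, with a median of 0.46 log2 for induced targets (0.80 against EV) and -0.23 for repressed targets (-0.51 against EV). The count depended on the HB6 wells, at 203, 166 and 180 without HB6 replicates 1, 2 and 3.

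Among targets with a mean of at least 5 CPM in HB6 or EV libraries, those that passed this test and lay far apart from the other TFs included AT1G74940, with a log2 difference of 1.72 (SE 0.20, adjusted p = 2.5e-10), HAT2 (1.62, SE 0.17, adjusted p = 7.2e-11), CYP705A5 (1.42, SE 0.14, adjusted p = 2.2e-12), AT2G20080 (1.38, SE 0.23, adjusted p = 8.8e-06) and RHD6 (1.28, SE 0.19, adjusted p = 2.0e-06). The 21 libraries of the other TFs stood at 3.67 to 15.8 CPM for HAT2 and 29.9 to 126 CPM for CYP705A5, wholly below the HB6 wells. On the repressed side, with the same minimum and among targets that passed this test, the largest differences were those of NAC076, a factor of xylem vessel formation (-0.88, SE 0.25, adjusted p = 0.025), CKX5, a cytokinin oxidase (-0.79, SE 0.11, adjusted p = 4.2e-07), MAKR5 (-0.73, SE 0.14, adjusted p = 2.0e-04), the plastid gene ATCG00800 (-0.68, SE 0.17, adjusted p = 0.012), AT3G43430, a RING/U-box protein gene (-0.66, SE 0.09, adjusted p = 9.1e-08), and AT4G34380, a WD40 repeat protein gene (-0.64, SE 0.11, adjusted p = 1.9e-05). AT3G43430 had 71.3, 68.7 and 75.3 CPM with HB6, against 121, 125 and 125 CPM with EV and 82.8 to 211 CPM with the other TFs, so it was lowest with HB6 in the whole batch. The HB6 wells of CKX5 (32.6, 36.0 and 35.7 CPM) all lay within the 29.9 to 174 CPM of the other TFs. For NAC076 and ATCG00800 the highest HB6 well (3.78 and 11.4 CPM) lay within the range of the other TFs. Against EV the call of NAC076 was lost without HB6 replicate 2 or EV replicates 1 or 3 (adjusted p up to 0.17) and that of CKX5 when any library except EV replicate 3 was left out (up to 0.19). From the 12 repressed targets with the largest changes over EV, only MAKR5, GSTU12 and AT5G66390 passed against the other TFs. The rest did not (adjusted p of 0.059 or more). EXLB1 stood at 4.11 to 11.9 CPM in the 21 libraries of the other TFs, below every EV well. From the 12 induced targets all except LBD13 (adjusted p = 0.14) passed.

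All 7 genes looked up in the thalianol and marneral clusters passed against the other TFs. So did CCD8 (1.06, SE 0.10, adjusted p = 4.3e-13), CYP707A1 (0.85, SE 0.14, adjusted p = 9.7e-06) and RAB18 (0.86, SE 0.14, adjusted p = 1.1e-05). ASN1 (0.73, SE 0.19, adjusted p = 0.015), GLU2 (0.34, SE 0.07, adjusted p = 0.0014) and EXPA17 (1.99, SE 0.34, adjusted p = 2.5e-05) passed as well. The contrast is with a mean, and single libraries of the other TFs could match HB6. Their highest levels were 214 CPM for CYP707A1, 85.1 CPM for RAB18, 649 CPM for ASN1 and 240 CPM for GLU2. In each of these genes that level lay within or above the range of the HB6 wells. MYB78 differed by -0.42 (SE 0.07, adjusted p = 2.2e-05). None of the 4 phenylpropanoid genes passed in this contrast, with differences of -0.24 for PAL1, -0.17 for PAL2, -0.18 for C4H and -0.22 for 4CL1. Among the 4 called ethylene synthesis genes 1 passed, and the median difference over the 8 tested was -0.29. ACO4 did not differ from the other TFs in the test (-0.02, SE 0.08, adjusted p = 0.97). Its HB6 wells lay within the 125 to 232 CPM of the 21 libraries, near whose upper end the EV wells stood.

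**Figure D5:**
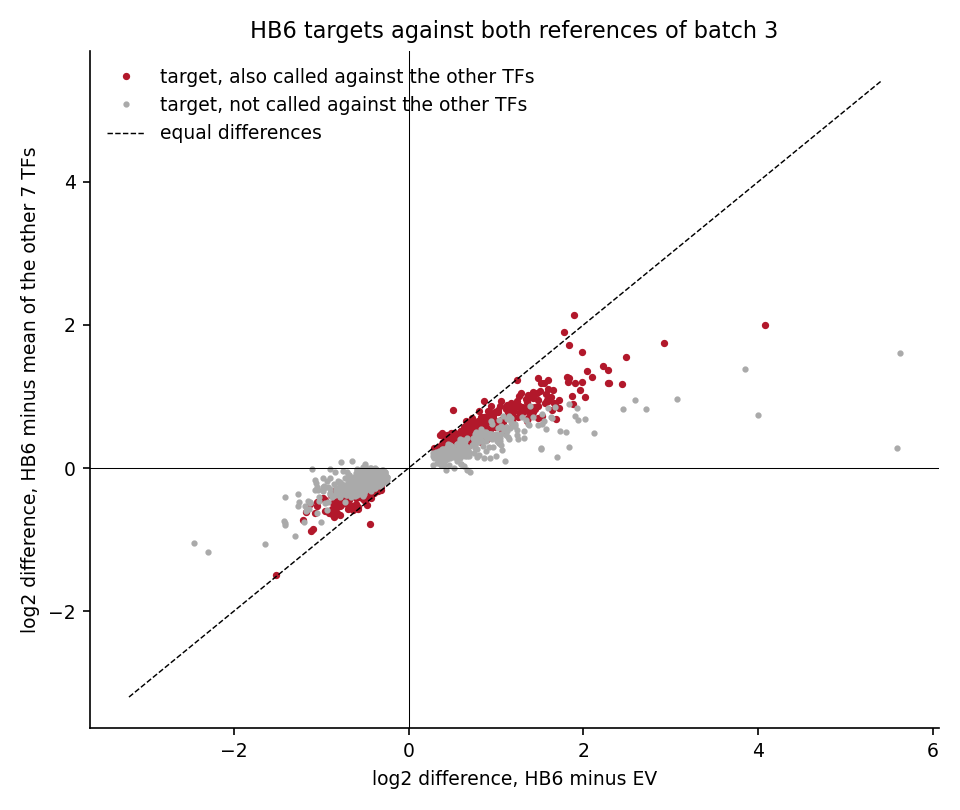
For each of the 1158 HB6 targets, the log2 difference of HB6 from the mean of the other 7 TFs of batch 3 (vertical axis) against its log2 fold change over EV (horizontal axis), with targets that passed both tests in red, the rest in grey and a dashed line where both are equal. Most points lie nearer to 0 on the vertical than on the horizontal axis, and 253 induced and 138 repressed targets are red.

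HAT22 is the other HD-Zip factor of the screen, of class II, and was assayed in batch 5 with 2 libraries and 3 EV libraries of its own, so HB6 and HAT22 share no library. HAT22 changed 15.1% of the genes tested (3254). Of these, 530 were HB6 targets, which is 45.8% of the HB6 targets and 16.3% of the HAT22 targets. Of the 530, 31 were induced and 40 repressed by both, and 459 moved in opposite directions. Among the 459, 344 were repressed by HB6 and induced by HAT22, and the rest were induced by HB6 and repressed by HAT22. The difference between the HB6 effect and the HAT22 effect was called in 764 of the 1158 HB6 targets (66.0%), beside 15.1% of all genes tested. The targets were chosen by their HB6 effect, which is a term of this difference, so a higher share among them follows from the choice and nothing is read from it. That number fell to 483 without EV replicate 1 of batch 3. The effects of TF and of batch cannot be told apart in this comparison. The HAT22 libraries held 6749897 and 5057728 counts, and the EV libraries of batch 5 held 3269292 to 6129125. The 10 top genes took 23.1 to 37.5% of their counts, against 5.05 to 5.80% in HB6 and EV libraries of batch 3. TMM factors were 0.833 and 0.867 for HAT22 and 0.984 to 1.16 for its EV libraries. In batch 3 they were 0.955 to 0.983 for HB6 and 0.858 to 0.866 for EV. The part of these differences in the opposite calls was not tested.

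Among the genes with opposite calls, HAT2 had 26.5 and 27.8 CPM in HAT22 libraries, against 66.5, 53.3 and 47.1 CPM in the EV libraries of batch 5 (log2 fold change -1.04, adjusted p = 0.0085), whereas it rose with HB6, and the effects differed by 3.02 (SE 0.41, adjusted p = 8.7e-09). RAB18 had 24.2 and 35.6 CPM in HAT22 libraries, against 42.9, 68.7 and 59.8 CPM in EV libraries of batch 5 (-0.94, adjusted p = 0.0068), and its effects differed by 2.19 (SE 0.33, adjusted p = 1.7e-07). Neither gene's HAT22 libraries overlapped its EV libraries. HB12 also fell with HAT22 (-1.40, adjusted p = 8.8e-10). GSTF6 had 2520.1 and 2676 CPM in HAT22 libraries, against 661, 884 and 985 CPM in EV libraries of batch 5 (1.62, adjusted p = 3.4e-20), and 4CL1, ADT4, CCR2, ACS2 and NIA2 likewise rose with HAT22 (1.77, 1.23, 1.11, 1.32 and 0.55) and fell with HB6. ABCG37 and ABCC1 were among the genes induced by both (1.04 and 0.73 with HAT22), and CKX5, HAI2 and IAA9 among those repressed by both. HAT22 was not called for ASN1 (0.27, adjusted p = 0.67), CYP705A5 (-0.19, adjusted p = 0.83) or CCD8 (-0.55, adjusted p = 0.24). The difference of effects was called for ASN1 at 1.26 (SE 0.44, adjusted p = 0.034), for CYP705A5 at 2.41 (SE 0.43, adjusted p = 6.0e-06) and for CCD8 at 1.98 (SE 0.34, adjusted p = 2.5e-06). Genes with the CAATNATTG palindrome had a median log2 fold change of 0.12 with HB6, against -0.08 with HAT22, and genes without it of 0.03 with HB6, against -0.0061 with HAT22.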

How the data were processed

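RNA-seq libraries of sorted protoplasts were made from mRNA. The authors aligned the reads to TAIR10 with TopHat2 and counted them per gene with GenomicFeatures and GenomicAlignments, and deposited raw counts, 1 file a library, without normalization. Multi-mapped reads and strand use are not given in the sources used here, so paralogs and overlapping genes are uncertain. All libraries of the series (33016 gene identifiers, 32795 matched to RefSeq) were fitted with edgeR 4.0.16 (R 4.3.3, limma 3.58.1): TF and batch as terms, TMM, robust quasi-likelihood, and a minimum of 10 counts in 3 or more libraries for each gene (22883 tested). The fit had 39 coefficients and 76 residual degrees of freedom. Each contrast had its own Benjamini-Hochberg adjustment. SE was derived from the log2 fold change and its F statistic. The study's list of 1421 CHX-responsive genes (1398 tested) and HB6 were left out after the test. The procedure was tested on simulated data. No 2 of the 6 libraries were identical, and replicate pairs differed by more than sampling noise. Values across genes are not length-scaled.

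Named genes were the 12 induced and 12 repressed targets that changed most in log2 terms among those with a mean of at least 5 CPM in HB6 or EV libraries and no overlap of groups, the 6 of each direction furthest from the other TFs, list members that were targets, and HB6. A gene that the rule selects is not reported here. Others are marked as chosen after their values were seen. Of 302 listed members 292 matched the reference by identifier and symbol, and unmatched ones were dropped except TFs of the screen. Members, lists and rules were chosen with earlier results of these data known. Gene positions and sequences are those of RefSeq TAIR10.1. Intervals are 95% Wilson intervals (scipy 1.17.1 in Python 3.11.15). Alternatives were DESeq2 1.42.0, its size factors in edgeR, no filter, a replicate block, fits to batch 3 alone or to HB6 and EV alone, CHX-responsive genes kept, TF genes left out of normalization, each library left out in turn, and targets of at least 2-fold for promoters.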

Additional observations from a re-analysis of the deposited data

How the results depend on the processing

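Fitting fewer libraries gave more targets: 944 induced and 1018 repressed in batch 3 alone, with 767 also apart from the other TFs, and 1095 induced and 1385 repressed with HB6 and EV alone. These held 1118 and 1143 of the 1158 targets. DESeq2 called 623 induced and 825 repressed (1144 of the 1158 shared). Without the filter on low counts 375 were induced and 639 repressed (989 shared), and 8 of the 107 named targets lost their call: CKX5, RD29B, HB12, HB20, GDH1, IAA9, GH3.4 and RHD2. The same replicate numbers did not pair the wells: deviations of same-numbered HB6 and EV libraries correlated at 0.05, 0.02 and 0.01. With the replicate block 668 targets were induced and 905 repressed, all 1158 remained, and those also apart from the other TFs rose to 662. With CHX-responsive genes kept, 565 were induced and 930 repressed. Leaving out a library in turn gave 303 to 353 induced and 374 to 503 repressed targets, 166 to 337 also apart from the other TFs and 483 to 582 with an effect different from that of HAT22. The log2 fold change of HB6 itself was 5.32 to 5.42 in these fits. Restricting promoters to targets of at least 2-fold moved the share with CAATNATTG to 7.69% for induced and to 0 for repressed targets. No direction reversed among the named genes in any alternative. Under the 6 fits without 1 library 66 of the 107 named targets kept their call throughout, and HB12 and GDH1 lost it in each. The cause of these shifts was not tested. Groups of 3 wells from a single transfection limit what any of these tests can show, and counts near 0 (EXPA17, BRN1, HB23) give wide errors.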
